A study of Mus musculus with 112 samples.

Results

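The Asb4 and Peg10 imprinted cluster of proximal mouse chromosome 6 is described here by 10 neighbouring genes, Calcr, Tfpi2, Sgce, Peg10, Ppp1r9a, Pon1, Pon3, Pon2, Asb4 and Pdk4, of 55413 genes in the mm10 annotation. For each gene, every CpG cytosine with a DNA methylation (DNAme) value from 5 kb before the gene's start to its end was taken. The genes were chosen because a region about 1.8 kb before the Asb4 start was lower in the brain of sons of Nrf2-/- sires, so both comparisons of sire genotype in brain are given as a description, with counts but no p for a value. Within these windows 1327 of 3853391 positions of F0 sperm, 765 of 2224819 of F1 sperm and 738 of 2514705 of F1 brain were measured. Only cytosines measured in 4 or more libraries per group were scored within a tissue, which left 341, 166 and 412 cytosines. Scoreable cytosines at most 100 bp apart formed 24 of 62831 regions of F0 sperm, 13 of 33449 of F1 sperm and 30 of 80920 of F1 brain, each with 3 or more cytosines over more than 50 bp.

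The data are 112 reduced representation bisulfite sequencing (RRBS) libraries in 13 groups, and each value is the percent of reads of 1 cytosine that were methylated. F0 sperm came from C57BL/6J wild type (WT) sires and from sires without Nrf2, the transcription factor that switches on antioxidant genes, bred on the same C57BL/6J background. The WT sires were unexposed controls (n = 10), cigarette smoke (CS)-exposed (n = 9), or exposed and then left to recover for the intervals labelled 1, 2 and 3 (n = 9, 10 and 10), which span 28 to 171 days in the series' own description. Per the paper, controls were collected together with the smoked group, so the recovery sires were older than the controls. Recovery and age at collection cannot be told apart. The Nrf2-/- sires were unexposed controls (n = 10) or CS-exposed (n = 9). F1 brain came from unexposed sons of control and smoked WT sires and of control and smoked Nrf2-/- sires (n = 8 each), and F1 sperm from sons of control (n = 6) and smoked (n = 7) WT sires. All sons had CAST/EiJ mothers, so their values mix the alleles of both parental strains, which the tables do not separate, and the sons of Nrf2-/- sires carry 1 targeted Nrf2 allele themselves. A library titled as control WT F1 brain carries an Nrf2-/- strain label and was grouped by its title. Which column holds it is not known. Columns carry facility numbers that match no sample label, so libraries are named here by those numbers. In both tissues with 2 sire genotypes, the numbers of the Nrf2-/- libraries (1 to 20 in F0 sperm, 1 to 16 in brain) precede those of the WT libraries (21 to 70 and 17 to 32), and number run and genotype cannot be told apart.

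Imprinted genes are expressed mainly from the maternal or the paternal copy, and a stretch of DNAme laid down in one parent's germ cells marks from which parent a copy came. In this cluster the paternally expressed pair Sgce, which encodes the membrane protein epsilon-sarcoglycan, and Peg10, a gene derived from a retrotransposon and needed for the placenta, start next to each other on opposite strands from a shared CpG island that is methylated on the maternal copy only. Asb4, which encodes a substrate-binding subunit of a ubiquitin ligase complex, is known as a maternally expressed gene of the same cluster, and maternal bias of several other members has been described in placenta or brain.

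The reference sequence (RefSeq, GRCm38, forward strand) is shown for stretches at or next to places with results, with each CpG in capitals. The first is the Asb4 region that chose the members with 15 bases on either side, at chr6:5381496-5381621, between genes. The second surrounds a cytosine nearer to the Asb4 start, at chr6:5382531-5382561. The third is the whole gap between the starts of Sgce and Peg10, at chr6:4747208-4747305, which lies next to the scored region of their promoter and outside it. The fourth is a region in the first part of Ppp1r9a, at chr6:4904752-4904892, annotated as intron.

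Asb4 upstream region: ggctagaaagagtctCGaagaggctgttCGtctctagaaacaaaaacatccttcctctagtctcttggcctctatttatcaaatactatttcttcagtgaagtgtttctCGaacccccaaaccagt

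Asb4 upstream cytosine: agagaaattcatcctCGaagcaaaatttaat

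Sgce to Peg10 gap: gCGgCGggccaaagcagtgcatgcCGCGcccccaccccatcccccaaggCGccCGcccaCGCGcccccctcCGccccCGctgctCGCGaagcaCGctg

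Ppp1r9a intron region: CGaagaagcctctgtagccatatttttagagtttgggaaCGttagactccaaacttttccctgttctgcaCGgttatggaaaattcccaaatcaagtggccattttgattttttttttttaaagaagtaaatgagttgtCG

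The Asb4 stretch is poor in CpG, with 3 in 126 bases, and the gap between Sgce and Peg10 is rich, with 13 in 98. The RRBS libraries were cut with MspI, which reads CCGG, and TaqI, which reads TCGA. In the Asb4 stretch a TCGA starts at 5381510 and another at 5381604, so 2 of its 3 CpGs sit inside a TaqI site, and the single CpG of the second stretch is in a TCGA at 5382545. Both motifs are palindromes, so 1 search covers both strands. Of 126-base windows around all 80920 brain regions, 37.6% held TCGA and 67.6% held CCGG.

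A library covered between 800578 and 1855546 positions of F0 sperm, 510212 and 1429060 of F1 sperm, and 1332684 and 1711088 of F1 brain. The tables give percents without read counts, so the depth behind a value is unknown and no interval for counting error can be given. The tissue labels were checked at imprinted marks outside the cluster, of which Nap1l5 and Mest are on the same chromosome. Promoters methylated on the maternal copy were near 0 in F0 sperm (Peg3 0.659% ± 0.764, Nap1l5 0.508% ± 0.695, SD, n = 67) and intermediate in brain (Peg3 29.8% ± 6.76, Nap1l5 24.5% ± 8.83, SD, n = 32). Plagl1 stayed low in both (0.413% and 2.50%), and Mest and Snrpn had no scoreable cytosine in their windows. In F1 sperm the Peg3 and Nap1l5 promoters were at 0.933% ± 0.818 (n = 11) and 2.14% ± 3.40 (SD, n = 10). The window before H19, a gene marked on the paternal copy, was at 51.2%, 23.98% and 30% across F0 sperm, F1 sperm and brain. Sperm was thus above brain there in F0 and below it in F1. The window before Rasgrf1 was low in F0 sperm and brain (0.578% and 1.60%). The window before Meg3, with 4 cytosines, was at 1.22% in F0 sperm (SD 4.135, n = 46) and 5.24% in brain (SD 9.504, n = 27). Whether the H19, Rasgrf1 and Meg3 windows hold the imprinted marks of these genes was not tested, so they do not check the tissue labels.

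The Asb4 region was lower in brain of sons of control Nrf2-/- sires than in the other groups, and the difference sat at 1 of its 3 cytosines. The region, chr6:5381511-5381606, lies 1780 to 1875 bp before the start. In control WT brain the lowest, median and highest libraries were at 74.0%, 81.9% and 85.0%, and in smoked WT brain at 78.3%, 80.2% and 87.2%. Control Nrf2-/- brain ran from 58.3% through a median of 60.6% to 77.0%, and smoked Nrf2-/- brain from 63.3% through 76.8% to 80.4%. Thus 7 of the 8 control Nrf2-/- libraries lay below every WT library, and the smoked Nrf2-/- libraries overlapped both. Means were 81.3% ± 3.63, 81.0% ± 2.92, 62.4% ± 6.14 and 75.4% ± 5.59 (SD, n = 8 each), in the same order of groups. The difference between control Nrf2-/- and control WT was -18.9 points, the value by which the members were chosen, and that between smoked Nrf2-/- and smoked WT was -5.596 points.

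At the cytosine at 5381524, the middle CpG of the printed stretch and the only one outside a TaqI site, control Nrf2-/- was lower than control WT by 50.0 points, against differences of -3.65 and -2.93 points at its neighbours. Control WT brain ran from 40.8% to 66.7% (median 57.7%) and smoked WT brain from 46.9% to 68.97% (median 51.1%). In control Nrf2-/- brain 7 of 8 libraries were at 0 to 3.704%, while library 3 was at 37.3%. In smoked Nrf2-/- brain 7 of 8 were at 38.03% to 56.04%, while library 6 was at 2.50%. Each of these libraries therefore lay outside the range of its own group and near that of the other Nrf2-/- group, and whether their labels hold was not tested. Without library 3 the control Nrf2-/- region mean was 60.3% ± 1.91 (n = 7), and without library 6 the smoked Nrf2-/- mean was 77.1% ± 2.94 (n = 7).

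**Figure D1:**
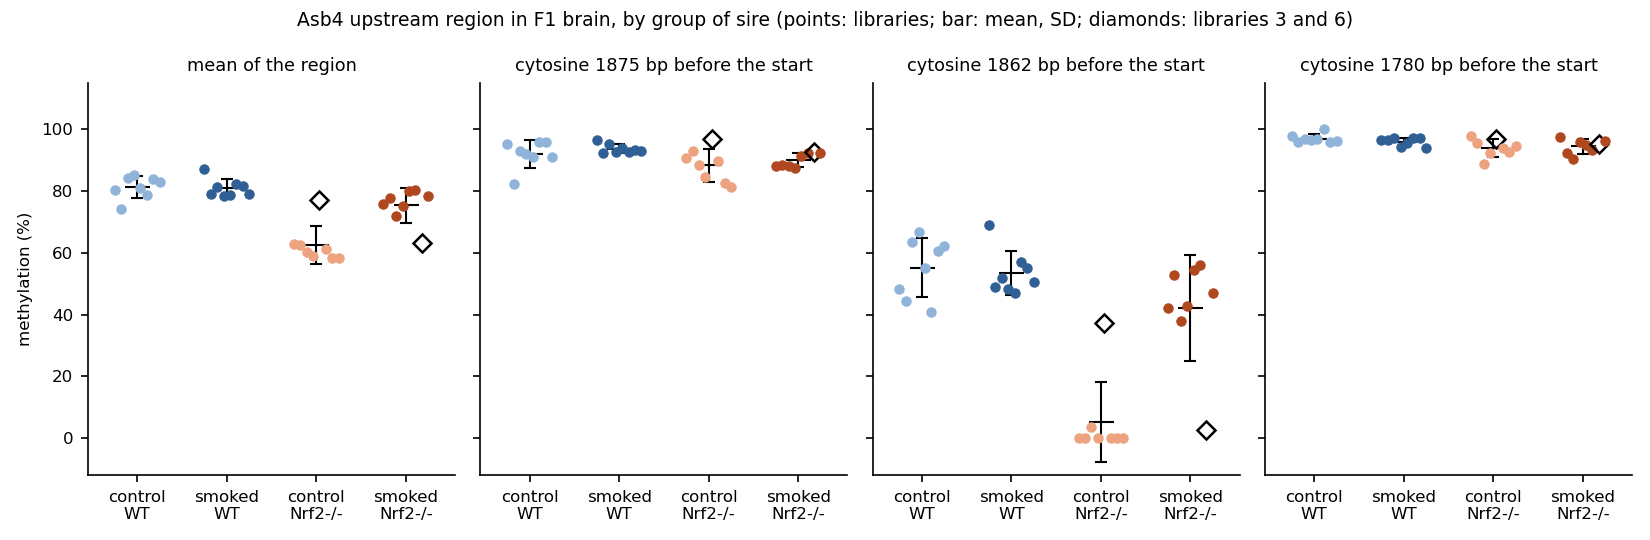
Methylation in percent (y axis) of the Asb4 upstream region and of each of its 3 cytosines in the 32 F1 brain libraries, by genotype and smoke exposure of the sire (x axis); points are libraries, bars are the mean and SD, and open diamonds are control Nrf2-/- library 3 and smoked Nrf2-/- library 6. The cytosine 1862 bp before the start separates 7 of 8 control Nrf2-/- libraries, at 0 to 3.704%, from all WT libraries, at 40.8% or more, while the flanking cytosines are between 81.3% and 100% in every library.

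Over the 32 brain libraries and 71125 regions outside the members, the highest Pearson r were 0.860 at chr6:6696422-6696484, 0.821 at chr6:50753504-50753671 and 0.817 at chr6:8163621-8163725, all 3 on chromosome 6. The points share sire group and number run, and the regions were picked by r over these same libraries, so the values are a description. At the first, 1.31 Mb beyond the Asb4 start, control Nrf2-/- brain was at 6.48% to 18.9% apart from library 3 at 29.8%, and smoked Nrf2-/- brain at 28.5% to 38.9% apart from library 6 at 13.3%. WT brain was at 30.1% ± 4.33 (control) and 29.9% ± 3.43 (smoked; SD, n = 8 each).

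In sperm of the sires the cytosine at 5381524 behaved differently from brain. The 46 WT libraries of F0 sperm with a value there were all at 83.7% or more, with group means of 93.6% to 94.8%. Of the 19 Nrf2-/- libraries only 1, control library 6, had a value, at 94.0%, and no smoked Nrf2-/- library had one. The neighbouring cytosine at 5381511 showed the same presence and absence, with 46 of 48 WT libraries and 1 of 19 Nrf2-/- libraries holding a value. The third cytosine of the region, at 5381606 on the reverse strand, had a value in all 67 libraries and was at 93.5% to 95.4% in every group mean. F1 sperm, from sons of WT sires only, was at 40.1% ± 15.6 (n = 6) and 44.4% ± 20.8 (n = 4 with a value) at 5381524, and all 10 values were at 61.5% or less, below every value of their sires' generation. F0 and F1 sperm differ in generation, in strain of the mother and in facility run at once, and these cannot be told apart.

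Positions that were read in WT and not in Nrf2-/- F0 sperm were counted over all members by a rule chosen after these values were seen, a value in at least 44 of 48 WT libraries and at most 2 of 19 Nrf2-/- libraries. Of the members' 226 positions present in WT, 8 (3.54%) were missing in this sense, against 0.592% of 32950 on chromosome 6 and 0.125% of 644145 in the genome. All 8 were in Pon2 (5 of 40) and Asb4 (3 of 21), and none was in the other 8 genes. The Asb4 positions were 5381511, 5381524 and 5382834, the last unmethylated in WT sperm (group means of 2.17% to 5.13%). The Pon2 positions were 5268844, 5269004, 5269010 and 5269016, near fully methylated in WT sperm (90.0% to 99.2%), and 5297346, unmethylated there (0.823% or less). In the opposite direction, the rule was a value in at least 18 of 19 Nrf2-/- libraries and at most 4 of 48 WT libraries. By it 1 of 173 member positions present in Nrf2-/- sperm was taken (0.578%, against 0.0491% of the genome's). That position, at 5274834 in Pon2, had no value in any of the 48 WT libraries. It was methylated at 98.4% ± 5.06 in control Nrf2-/- sperm (n = 10), and in brain it had a value in 5 control Nrf2-/-, 1 smoked Nrf2-/- and 0 WT libraries. What removed or added these positions was not tested.

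Asb4 was also the only member whose gene window was called between genotypes of the sires themselves. Over its 30 scoreable cytosines, control WT sperm ran from 4.78% through a median of 6.11% to 7.94%, and control Nrf2-/- sperm from 9.35% through 11.4% to 15.8%. Smoked WT sperm ran from 4.58% to 7.22% (median 6.47%) and smoked Nrf2-/- sperm from 9.78% to 16.1% (median 11.5%). The genotypes did not overlap in either pair of groups. The difference was 5.53 points (SE 0.601; limma, adjusted p = 1.65e-09 over 29735 gene windows) between the control groups, where 0.400% of all windows were called, and 5.64 points (SE 0.633; limma, adjusted p = 4.02e-09) between the smoked groups, where 0.434% were. Leaving out each library in turn gave 5.09 to 5.80 and 5.09 to 5.88 points, with adjusted p of at most 3.31e-08. At an unadjusted limma p under 0.05 there were 3 of 10 members' windows between the control groups and 2 between the smoked groups, against 8.52% and 7.26% of all windows. The others were Peg10 in both (-2.71 and -3.52 points, limma, adjusted p = 0.571 and 0.510) and Pon3 in the control groups.

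The difference sat at 2 cytosines. The one at 5382546, inside the TaqI site of the second printed stretch and 840 bp before the start, was at 25.8% ± 17.1 in control WT (n = 10) and 85.5% ± 12.6 in control Nrf2-/- sperm (n = 10), with libraries from 3.45% to 56.3% and from 63.6% to 100%. In the smoked groups it was at 27.4% ± 9.80 (n = 9) and 89.3% ± 16.6 (n = 6 with a value). The genotypes did not overlap in the control pair or in the smoked pair, where the highest WT library was at 38.2% and the lowest Nrf2-/- library at 57.1%. The differences were 59.7 points (SE 6.22; limma over single cytosines, adjusted p = 1.65e-09) and 61.98 points (adjusted p = 1.11e-07).

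The second cytosine, at 5383386 on the reverse strand, is the first base of Asb4. It was at 15.2% ± 7.63 in control WT and 85.4% ± 15.2 in control Nrf2-/- sperm (n = 10 each), and at 12.95% ± 12.7 and 92.3% ± 6.48 in smoked WT and smoked Nrf2-/- sperm (n = 9 each). The lowest Nrf2-/- value, 48.8% in control library 6, was above the highest WT value of the 5 WT groups, 41.7%. The differences were 70.2 points (limma, adjusted p = 1.98e-17) and 79.3 points (limma, adjusted p = 7.69e-19). Of the members' 341 scoreable cytosines, these 2 were called in each genotype comparison, against 0.0841% of 1023708 cytosines between the control groups and 0.0820% between the smoked groups. Without them the Asb4 window differed by 0.701 points (limma, adjusted p = 0.755) and 0.931 points (limma, adjusted p = 0.783), and 0 members' windows were called. Both cytosines were left out because they differed most between the control groups, so the choice itself lowers the difference that remains.

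**Figure D2:**
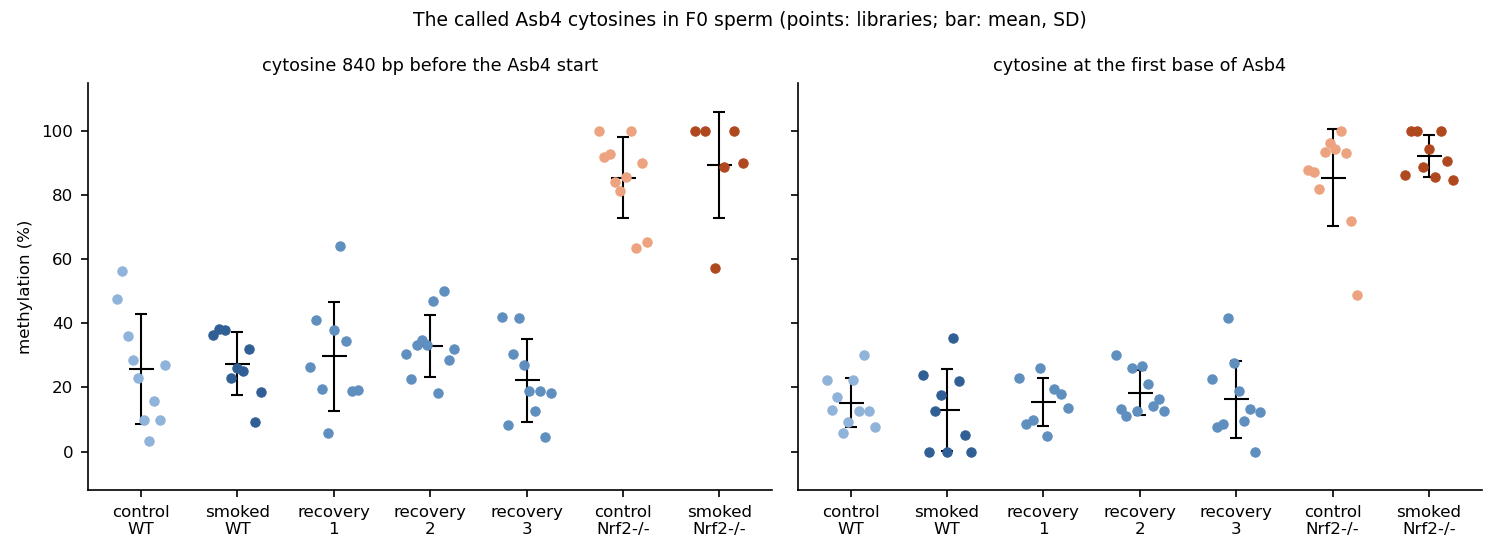
Methylation in percent (y axis) of the called Asb4 cytosines, 840 bp before the start and at the first base, in each F0 sperm library with a value, by group of sires (x axis); points are libraries and bars are the mean and SD. At the first base all Nrf2-/- libraries are at 48.8% or more and all WT libraries, exposed, recovering or not, at 41.7% or less; at 840 bp before it a recovery 1 library, at 64.3%, reaches the Nrf2-/- range.

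Among WT sires neither cytosine passed the test for smoke or recovery. At 5382546 the group means were 27.4% in smoked WT, and 29.7%, 33.04% and 22.3% in recovery 1, 2 and 3, against 25.8% in controls. At 5383386 they were 12.95%, 15.4%, 18.4% and 16.3%, against 15.2%. No member cytosine was called in the comparisons of smoked and recovery groups with control WT or of smoked with control Nrf2-/- sperm, and of 341 cytosines 12, 14, 16, 13 and 21 had an unadjusted limma p under 0.05, against 4.81%, 5.597%, 4.74%, 5.89% and 5.70% of all cytosines.

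In brain the upstream cytosine was at 3.17% ± 2.93 in control WT, 2.98% ± 3.91 in smoked WT, 12.1% ± 6.28 in control Nrf2-/- and 4.61% ± 3.54 in smoked Nrf2-/- brain (n = 8 each). In control Nrf2-/- brain 7 of 8 libraries were at 7.14% to 19.4% and library 4 was at 0, while the other 3 groups ran from 0 to 11.1%. The one at the first base was at 61.2% ± 22.7 (n = 6), 57.3% ± 14.3 (n = 8), 72.4% ± 31.4 (n = 5) and 50.3% ± 21.6 (n = 8), with libraries from 16.7% to 100%, and all 4 groups overlapped.

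**Figure D3:**
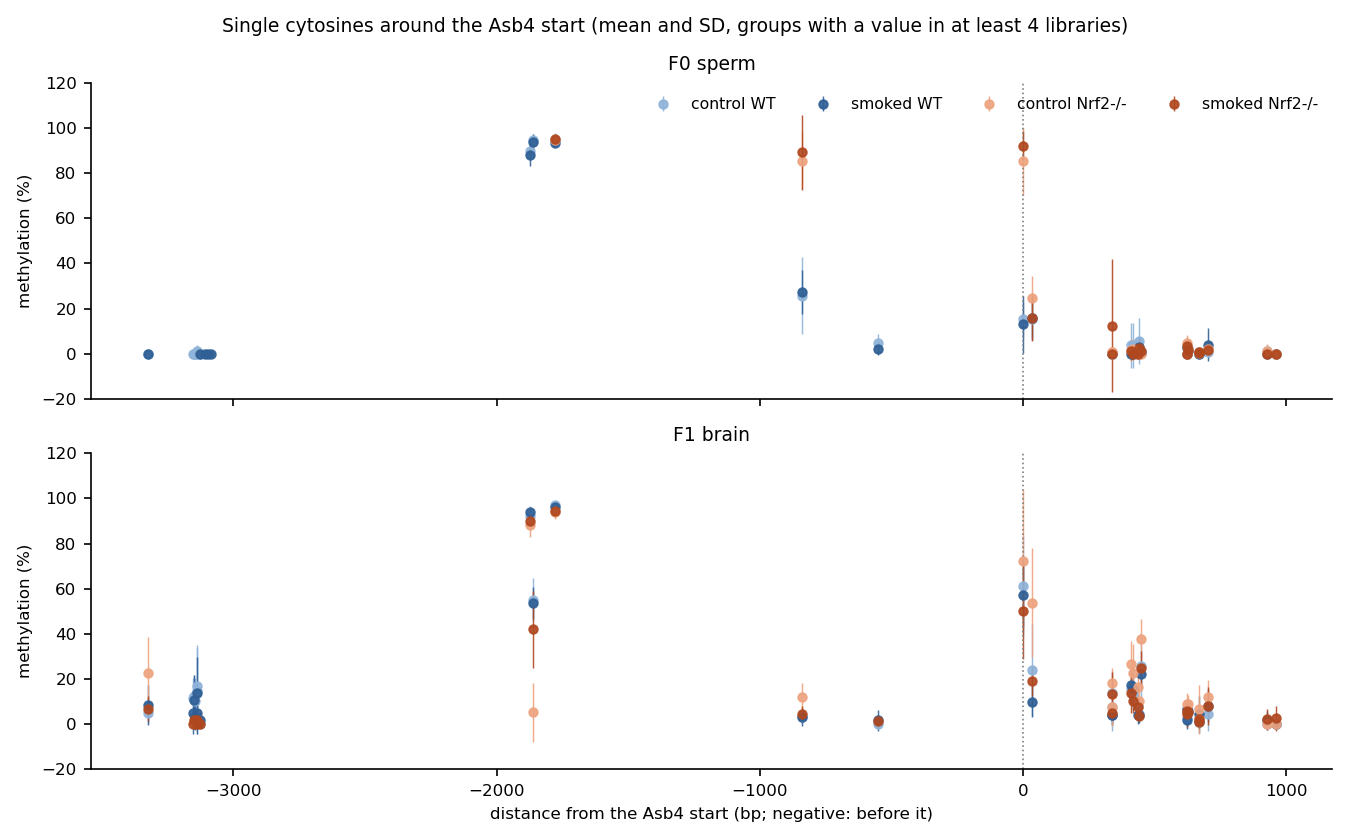
Mean methylation in percent (y axis, with SD) of single cytosines by distance in bp from the Asb4 start (x axis) in control and smoked WT and Nrf2-/- F0 sperm (top) and in brain of the matching sons (bottom), for groups with a value in at least 4 libraries. In sperm the genotypes part at 840 bp before the start and at the start itself, and in brain the mean of control Nrf2-/- is at 5.13% at 1862 bp before the start, where the other groups are at 41.97% to 55.1%.

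Inside Asb4 were 3 regions, each low in F0 sperm. The region at chr6:5383722-5383832, 391 bp past the start in an intron, was at 0.63% to 2.58% in the F0 sperm groups. In brain it was at 12.6% ± 5.75 in control WT, 10.1% ± 2.86 in smoked WT, 19.9% ± 4.28 in control Nrf2-/- and 11.2% ± 3.61 in smoked Nrf2-/- libraries, a difference of 7.34 points between the control genotypes (a description). Smoked and control Nrf2-/- differed by -8.73 points (SE 2.06; limma, adjusted p = 0.233), which did not pass. The next region, chr6:5384008-5384089, was at 0.90% to 2.05% in F0 sperm and 3.603% to 7.28% in brain. The third, chr6:5390341-5390404, 6986 bp past the start in an intron, was at 1.96% to 4.36% in the F0 sperm groups. Its brain means were 19.4% ± 5.50 for 4 control WT, 30.1% ± 12.1 for 5 smoked WT, 20.1% ± 13.5 for 4 control Nrf2-/- and 20.2% ± 6.96 for 6 smoked Nrf2-/- libraries with a value (SD). Smoked and control WT differed there by 10.7 points (SE 6.22, limma, unadjusted p = 0.101, adjusted p = 1), which did not pass.

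By sire genotype, the brain regions of the members were otherwise mixed, and these counts are a description. Between control Nrf2-/- and control WT brain limma called 1 of 30 member regions, the Asb4 region that chose the members, against 0.0124% of all regions, a count that the choice fixed and from which nothing is read. At an unadjusted p under 0.05 there were 5 of 30, that region among them, against 9.34% of all regions. A rule by size, more than 5 points in the mean and at 1 in 3 of the cytosines, took 4 (2 higher, 2 lower) against 7.53% of all: Asb4 upstream, the Asb4 intron region, a region deep in Ppp1r9a (-5.06 points) and one in an Sgce intron (+5.45 points). The Ppp1r9a region was just inside that rule, and the nearest region just outside, at 5094632 in the same gene, was at -4.23 points. Between smoked Nrf2-/- and smoked WT brain limma called 0 of 30, against 0.0976%, and 9 of 30, that region among them, were at an unadjusted p under 0.05, against 14.998% of all regions. The rule by size took 7, all lower in Nrf2-/-, against 17.5% of all regions. The largest differences were in Ppp1r9a at 4906026 (-24.4 points) and 5094632 (-16.2) and at the shared Sgce and Peg10 promoter (-16.6). No member's gene window was called in either comparison, against 0.00633% and 0.104% of all windows, and 1 and 3 of 9 were at an unadjusted p under 0.05, against 11.4% and 18.4% of all windows.

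By smoke exposure of the sire, no member region was called in brain. Between smoked and control WT, limma called 0 of 30, as of all regions (0%), and 0 were at an unadjusted p under 0.05, against 4.07% of all regions. The member region with the smallest p was in an intron of Ppp1r9a at chr6:5094632-5094738, at 71.0% ± 5.54 in control and 79.3% ± 4.28 in smoked WT brain (n = 8 each), a difference of 8.31 points (limma, unadjusted p = 0.0521, adjusted p = 1). The rule by size took 4 member regions, all higher, against 8.32% of all regions: that one, the shared Sgce and Peg10 promoter (6.43 points), Ppp1r9a at 4906026 (9.44 points) and Asb4 at 5390341 (10.7 points). Of gene windows, 0 were called, against 0%, and 0 of 9 were at an unadjusted p under 0.05, against 5.48% of all windows.

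Between smoked and control Nrf2-/- brain 0 of 30 member regions were called by limma, against 0% of all regions, and 5 were at an unadjusted p under 0.05, against 9.72%. These counts hold the Asb4 upstream region, and without it they were 0 and 4 of 29. By size, 5 passed the rule (1 higher, 4 lower), against 16% of all regions. The higher one was the Asb4 upstream region, by 12.97 points. That value shares the control Nrf2-/- libraries that chose the region, so it is a description and no p is given. The lower ones were the first inner Asb4 region (-8.73 points), the shared Sgce and Peg10 promoter (-11.5 points), Ppp1r9a at 4906026 (29.3% ± 14.2 against 16.1% ± 9.42; -13.1 points, limma, adjusted p = 0.4663) and Pon1 at 5172477 (59.9% ± 4.98 against 45.98% ± 15.01; -13.9 points, limma, adjusted p = 0.398). Gene windows of 0 of 9 members were called, against 0.0380% of all, and 1, Asb4, was at an unadjusted p under 0.05, against 15.02% of all. The Asb4 window holds the upstream region, and without Asb4 there were 0 of 8. In a limma test of the difference in smoke effect between genotypes, 0 of 24 member regions of F0 sperm and 0 of 29 of brain, the Asb4 upstream region left out, were called, and 0 of all regions of either tissue. At an unadjusted p under 0.05 there were 2 and 5, against 4.22% and 9.43% of all regions.

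The shared Sgce and Peg10 promoter was nearly unmethylated in sperm and partly methylated in brain. Its region, chr6:4747355-4747490, holds 12 cytosines in the first exon of Peg10, next to the printed gap. F0 sperm group means ran from 0.12% in recovery 2 to 2.06% in control WT, and none of the 7 comparisons of smoke, recovery or genotype passed (limma, adjusted p of 0.827 or more). Control WT library 21, at 16.2%, and recovery 1 library 33, at 10.1%, lay apart from the other libraries of their groups, which were at 1.85% or less and 0.634% or less. In F1 sperm the overlapping region at 4747398 was at 0.27% in control and 2.57% in smoked WT, where library 6 alone was at 16.3%.

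Brain libraries varied widely within every group at this promoter. Control WT brain ran from 12.9% through a median of 23.9% to 41.3%, and smoked WT brain from 2.41% through 35.5% to 49.2%. Control Nrf2-/- brain ran from 14.99% through 26.4% to 44.4%, and smoked Nrf2-/- brain from 1.07% through 14.1% to 35.2%. All 4 groups overlapped. The difference between smoked and control was 6.43 points in WT (SE 5.89; limma, adjusted p = 1) and -11.5 points in Nrf2-/- (SE 5.89; limma, adjusted p = 0.532), neither larger than the spread between libraries. Single libraries moved the first of these, to 10.8 points without smoked WT library 30, which was at 2.41%, and to 4.07 points without smoked WT library 17 (limma, adjusted p = 0.880 and 1).

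Of 3 relations computed across the 32 brain libraries with other maternally methylated promoters, those with Nap1l5 and Peg3 passed and that with Plagl1 did not. Libraries were first permuted freely over the 4 groups. With Nap1l5, Pearson's r was 0.675 (two-sided permutation test, adjusted p = 6e-05, from a p of 2e-05, the smallest that these permutations can give) and Spearman's rho 0.578 (permutation, adjusted p = 0.0018). Without the 2 libraries farthest from the median r was 0.557. With Peg3, r was 0.520 (permutation, p = 0.0021, adjusted p = 0.00315), rho 0.530 (permutation, p = 0.0019, adjusted p = 0.00285), and r without 2 libraries 0.502. With Plagl1, r was 0.219 (permutation, adjusted p = 0.227) and rho 0.157 (permutation, adjusted p = 0.396). Within the 4 groups r ran from -0.0015 to 0.899 for Nap1l5, from 0.245 to 0.759 for Peg3 and from -0.223 to 0.670 for Plagl1, so the relation with Nap1l5 did not hold in every group. With libraries permuted only within their groups, the adjusted p for r was 0.00195 for Nap1l5, 0.0126 for Peg3 and 0.249 for Plagl1 (permutation, chosen after the values were seen). The 4 libraries lowest at the promoter, at 1.07% to 5.23%, had library means over all regions of 40.03% to 41.4%, in a range of 40.03% to 44.3% over all brain libraries. The part of library-wide level in the relation was not tested.

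**Figure D4:**
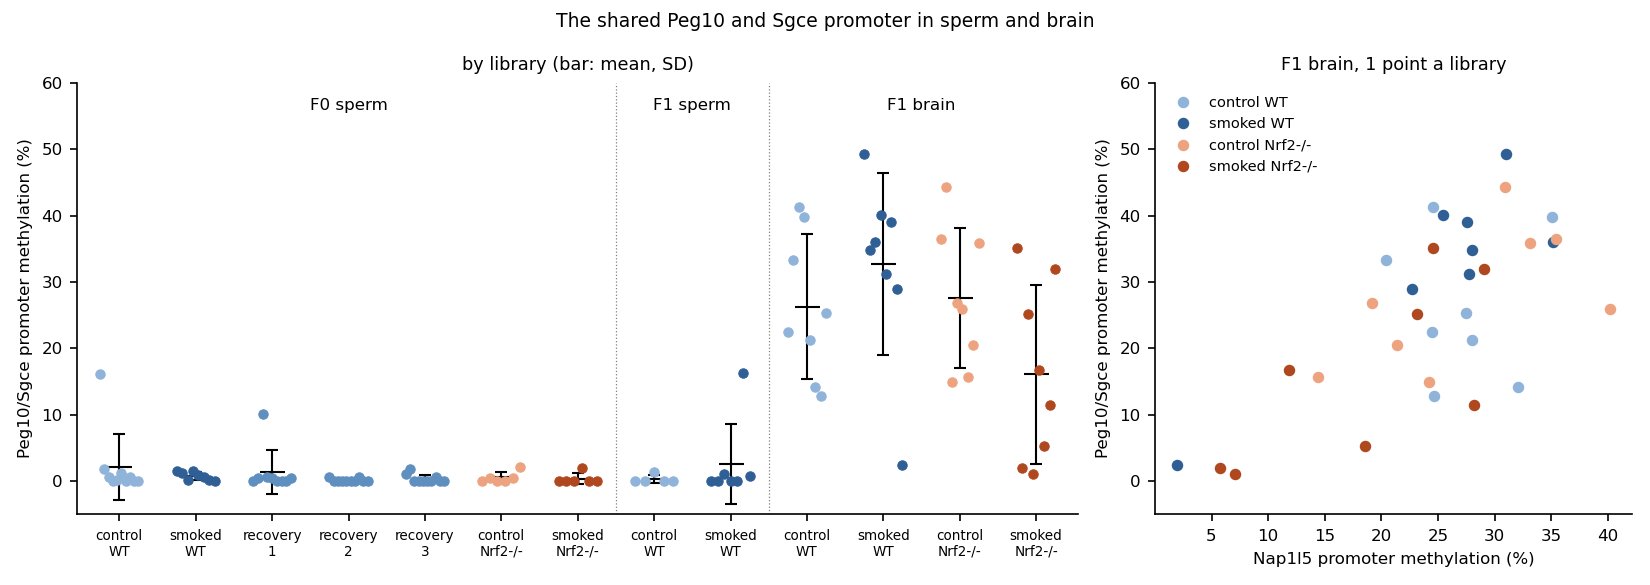
Methylation in percent of the shared Sgce and Peg10 promoter region in each library by group and tissue, with mean and SD, and, for the 32 brain libraries, against the Nap1l5 promoter in percent. Sperm libraries sit near 0 apart from single libraries at 16.2%, 10.1% and 16.3%, and brain libraries spread from 1.07% to 49.2%.

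Inside Peg10 the level differed by position. The region at 4755338 in the coding part and its flank was at 0.82% to 4.19% in the F0 sperm groups, whereas the overlapping brain region at 4755326 was at 94.5% to 96.1%. At 4755947 F0 sperm was at 71.1% to 82.7% and brain at 95.8% to 97.9%. At 4756163, control WT sperm was at 83.4% ± 3.75 (n = 9) and control Nrf2-/- at 75.3% ± 10.99 (n = 10), a difference of -8.08 points that did not pass (SE 3.69; limma, adjusted p = 0.572). Sgce, in its intron at 4693091, was at 95.3% to 97.1% in F0 sperm, 85.5% and 87.2% in F1 sperm and 64.3% to 69.8% in brain. An Sgce exon region at 4710453 was at 96.1% ± 2.75 in control and 89.5% ± 8.07 in smoked Nrf2-/- sperm, a difference of -6.64 points (limma, adjusted p = 0.765).

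Ppp1r9a, which encodes neurabin, an actin-binding protein that brings protein phosphatase 1 to its targets, had the most regions of any member, with 8 for F0 sperm, 5 for F1 sperm and 12 for brain. The printed intron region at 4904752, 1905 bp past the start, had the smallest p of any member region in 4 sperm comparisons, smoked WT, recovery 1 and control Nrf2-/- against control WT in F0 sperm and smoked against control WT in F1 sperm. Control WT F0 sperm was at 53.7% ± 2.38 (n = 10) and smoked WT at 48.1% ± 5.48 (n = 9), a difference of -5.62 points (SE 2.21; limma, unadjusted p = 0.0135, adjusted p = 1). Recovery 1, 2 and 3 were at 49.3%, 50.9% and 51.8%, and control and smoked Nrf2-/- at 48.4% and 49.2%. These groups overlapped one another. The F0 sperm comparisons among the 4 share the 10 control WT libraries and so are not independent. Control WT had the highest mean of all F0 sperm groups.

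In F1 sperm the difference at this region had the opposite sign. Sons of control WT sires ran from 24.7% through a median of 33.6% to 48.1%, and sons of smoked WT sires from 40.1% through 56.5% to 67.3% (n = 6 with a value in each group). The groups overlapped between 40.1% and 48.1%, and the difference of 21.4 points did not pass over all regions (SE 5.6; limma, unadjusted p = 0.00215, adjusted p = 0.841). In brain the 4 groups were at 47.7% to 50.7%. The promoter regions of Ppp1r9a, at 4902921 and 4903438, were at 1.53% or less in every F0 sperm and brain group.

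Calcr, the calcitonin receptor gene, was nearly unmethylated around its start. Its region at 3764485, in the UTR, was at 0.55% to 2.01% in the F0 sperm groups and 9.02% to 10.8% in brain. It had the smallest p of the members between smoked and control Nrf2-/- sperm, at 0.55% ± 0.58 (n = 9) and 2.01% ± 0.79 (n = 10), a difference of -1.46 points (SE 0.520; limma, unadjusted p = 0.00655, adjusted p = 0.699), and also between smoked Nrf2-/- and smoked WT sperm (-1.41 points, limma, adjusted p = 0.435). The region at 3763751 was at 0.25% to 1.62% in F0 sperm. Tfpi2, which encodes a serine protease inhibitor, had no region in sperm and 1 in brain, in an intron at 3970418, at 91.7% to 92.8% in all 4 groups.

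The paraoxonase genes, of which Pon1 encodes a serum enzyme carried on high-density lipoprotein, had few regions. Pon1 had 1, in an intron at 5172477, which varied widely between F0 sperm libraries of a group (group means of 50.4% to 60.5%, SD of 10.2 to 22.1 points). Pon2 was at 0.25% to 0.70% in its promoter region at 5298190 in F0 sperm and 0.43% to 0.76% in brain. Pon3 had no region in any tissue and was seen only through its gene window of 3 cytosines, at 87.5% ± 8.31 in control WT and 94.6% ± 3.53 in control Nrf2-/- F0 sperm, a difference that did not pass (7.04 points, limma, adjusted p = 0.581). Pdk4, a kinase gene whose product shuts down pyruvate dehydrogenase, was at 0.34% to 1.44% in its promoter region at 5496062 in F0 sperm and 0.63% to 2.43% in brain, and at 94.6% to 97.6% and 86.8% to 89.7% in its coding region at 5487322.

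**Figure D5:**
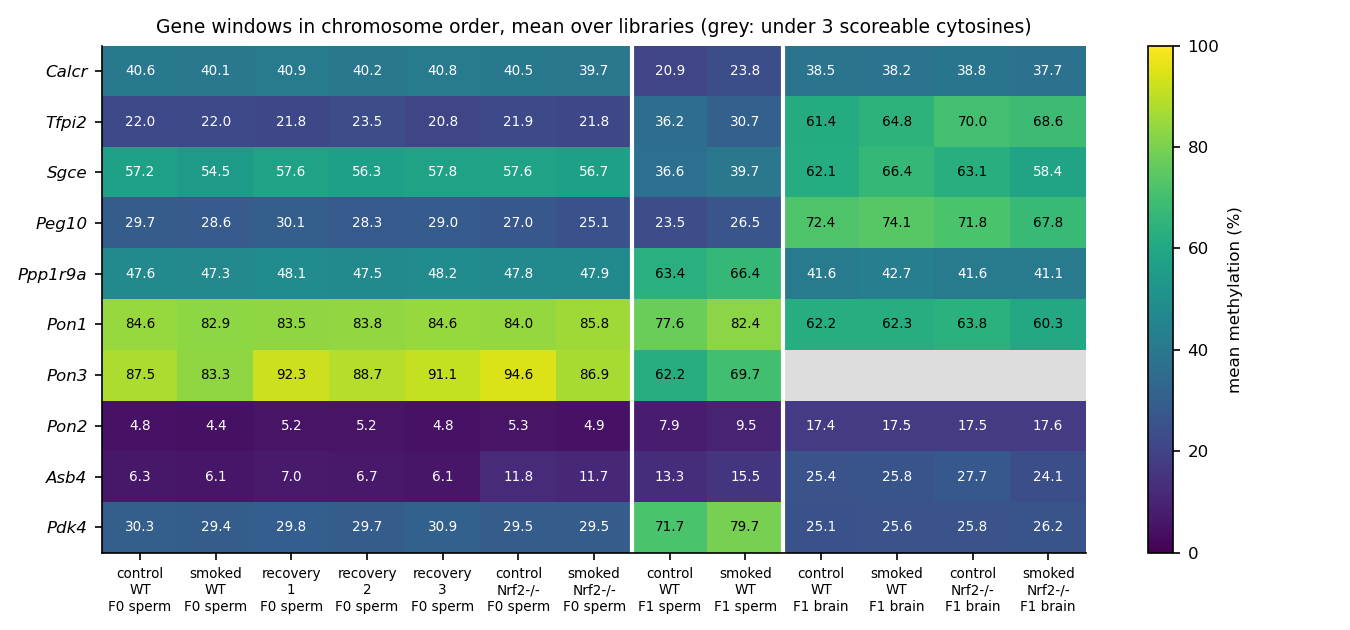
Mean methylation in percent of each member's gene window, from 5 kb before the start to the end, as a heat map with genes in rows in chromosome order, the 13 groups in columns, colour from 0 to 100% and the group mean printed in each cell; grey marks a window under 3 scoreable cytosines, and the cytosines differ between tissues. Among F0 sperm groups the Asb4 window was at 6.07% to 7.05% in WT and 11.7% and 11.8% in Nrf2-/- sires.

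Smoke exposure of WT sires left no member region called in their own sperm. Against control WT, limma called 0 of 24 regions in smoked sires (1 at an unadjusted p under 0.05; 0.00159% of all regions called), 0 in recovery 1 (1 unadjusted; 0% of all), 0 in recovery 2 (0 unadjusted; 0.00318% of all) and 0 in recovery 3 (0 unadjusted; 0.0318% of all). The rule by size took 1, 1, 0 and 0 member regions, against 2.61%, 3.40%, 2.53% and 4.10% of all. Gene windows gave 0 of 10 called in each (limma, 0 at an unadjusted p under 0.05), against 0%, 0%, 0% and 0.0101% of all windows. The shares of all regions at an unadjusted p under 0.05 were 3.97%, 5.36%, 4.26% and 6.35%, and of all windows 4.496%, 4.70%, 4.01% and 6.16%. The median member region differed from control WT by -0.22, 0.11, 0.00 and -0.10 points, beside -0.15, -0.04, -0.10 and 0.04 points over all regions.

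By genotype of the sire, limma called 0 of 24 member regions between control Nrf2-/- and control WT sperm, against 0.374% of all, and 0 between smoked Nrf2-/- and smoked WT, against 0.339%. At an unadjusted p under 0.05 there were 2 and 1, against 7.86% and 7.24% of all regions. The rule by size took 3 (all lower) and 2 (1 higher, 1 lower), against 5.10% and 5.35%. The called Asb4 cytosines lie in no region of 3, and so are seen in the window and single-cytosine tests alone. Between smoked and control Nrf2-/- sperm 0 of 24 regions were called (limma, 2 unadjusted; 0.00637% of all), the rule by size took 3 (1 higher, 2 lower; 3.73% of all), and 0 of 10 gene windows were called (1 unadjusted; 0% of all). The unadjusted shares were 5.79% of all regions and 6.15% of all windows.

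In F1 sperm limma called 0 of 13 member regions between sons of smoked and control WT sires, against 0% of all regions. At an unadjusted p under 0.05 there were 4, against 5.69% of all regions. The 4 were the Ppp1r9a region above, Peg10 at 4756163 (76.4% against 88.6%, 12.2 points higher), Ppp1r9a at 5008833 (7.95 points higher) and Calcr at 3764485 (-2.45 points), each with a limma adjusted p of 0.841. The rule by size took 5, all higher, against 13.1% of all. Of 10 gene windows 0 were called (limma, 2 unadjusted, Pon3 at 7.45 and Pdk4 at 7.94 points), against 0% of all called and 6.21% unadjusted. Other genes of the neighbourhood came from a fixed list of 17 names, some of them older names of a listed gene, with 12 or 13 measured per tissue. They gave 0 called windows in every comparison (limma), against 0% to 0.434% of all windows. At an unadjusted limma p under 0.05 they gave 0 to 3, against 4.01% to 18.4% of all windows, depending on the comparison.

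Brain and sperm of sons of control WT sires differed at most members that could be compared. Of 12 member regions limma called 7 (6 higher in brain, 1 lower; 7 unadjusted), against 57.3% of all regions (60.7% unadjusted), and the rule by size took 8, against 52.9%, so these shares are near those of all regions. The 7 hold the Asb4 upstream region, and without it 6 of 11 were called (5 higher, 1 lower). Tissue and facility run cannot be told apart. The shared Sgce and Peg10 promoter was at 0.35% in sperm and 26.5% in brain (26.1 points, SE 6.03; limma, adjusted p = 4.55e-04). Sgce at 4693091 was the region lower in brain, at 85.4% in sperm and 64.4% in brain (-21.0 points, SE 2.56; limma, adjusted p = 2.57e-08).

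The other regions higher in brain were smaller differences. Calcr at 3764485 was at 2.92% in sperm and 10.1% in brain (limma, adjusted p = 2.05e-04), and Pon2 at 5297322 at 2.69% and 7.97% (limma, adjusted p = 9.94e-06). Peg10 at 4756163 was at 76.3% and 87.8% (limma, adjusted p = 0.00423), and Ppp1r9a at 4904752 at 35.4% and 47.4% (limma, adjusted p = 0.0120, and 0.130 with array weights). The Asb4 upstream region was at 71.1% and 81.4%. Its brain libraries took part in choosing the members, so no p is given.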

How the data were processed

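RRBS was run by the authors on sperm of sires and on sperm and prefrontal cortex of sons, with 1 animal per library per the labels. The deposited tables give percent methylation per cytosine, made by the authors with Bismark on mm10 (per the submitters' processing notes, version not given in the sources used here), with no read counts, so the depth of a value is unknown. All 112 columns of 13 tables were used, grouped by table. The members and lists were chosen with earlier results of these data known.

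A region value was the mean deviation of its measured cytosines from each cytosine's mean plus the region mean, with at least 50% of cytosines measured. Gene windows needed 3 scoreable cytosines. Groups were compared with limma 3.58.1 (R 4.3.3; lmFit, eBayes with trend) in 1 fit per tissue, with Benjamini-Hochberg adjustment over all regions, windows or cytosines and a threshold of 0.05. P-values measure the spread between libraries. Each F1 library is a son, and the labels name neither his sire nor his litter. Sons of 1 sire or litter may therefore be counted as independent in the F1 tests, the permutations included. The script was tested on simulated data. Regions named with values were those at member starts (within 1 kb), the Asb4 region, those called, and the smallest p per comparison; others, and the single cytosines, were chosen after their values were seen. Sequences came from RefSeq (GRCm38), genes from GENCODE M21. Alternatives were joining within 300 bp, 6 libraries per group, any cytosine measured, fits of 2 groups, logit scale, centring, array weights, averaged strands, other windows, left-out libraries and sets of facility numbers as a block.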

Additional observations from a re-analysis of the deposited data

Results flagged for a closer look

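Of 55 groups of values examined for a library far from the rest of its group, 15 held one by Dixon's test. Chance flags about 1 in 20 groups where values are normally distributed. Several flagged sperm groups at the shared promoter lie at or near 0, and that rate does not hold for them. Values of the same libraries recur, so the groups are not independent. At the Asb4 cytosine at 5381524 these were library 29 of recovery 2 sperm (83.7%, others 92.4% to 100%), library 17 of smoked WT brain (68.97%, others 46.9% to 57.1%), library 3 of control Nrf2-/- brain (37.3%, others 0 to 3.704%) and library 6 of smoked Nrf2-/- brain (2.50%, others 38.03% to 56.04%). Over the Asb4 upstream region library 17 was at 87.2% (others 78.3% to 82.3%) and library 3 at 77.0% (others 58.3% to 62.8%). At the Asb4 cytosine at 5382546 library 18 of smoked Nrf2-/- sperm was at 57.1% (others 88.9% to 100%), and over the Asb4 window library 12 of the same group was at 16.1% (others 9.78% to 12.1%).

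At the shared Sgce and Peg10 promoter the libraries apart in F0 sperm were 21 of control WT (16.2%, others at most 1.85%), 33 of recovery 1 (10.1%, others at most 0.634%), 6 of control Nrf2-/- (2.14%, others at most 0.489%) and 20 of smoked Nrf2-/- (1.96%, others 0). In F1 sperm they were library 5 of control WT (1.35%, others 0) and library 6 of smoked WT (16.3%, others at most 1.03%). In brain it was library 30 of smoked WT (2.41%, others 28.9% to 49.2%).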

How the results depend on the processing

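No result reversed. Of 129 limma region counts 126 stayed within 1.5 times the reported count, as did 10 of 26 counts by the rule by size and 10 of 11 window counts. Most of these region counts were 0 that stayed 0, where few regions of the genome were called at all, so they say little about stability. Of 164 differences 160 kept their side of the threshold, and all 53 levels moved by less than 1 SD. With more than 10 points in the rule by size, the member counts were 0 in F0 sperm for smoked WT, recovery 1 and both genotype comparisons (0.302%, 0.578%, 1.14% and 1.16% of all regions), 1 for smoked against control Nrf2-/- (0.563%), 2 in F1 sperm (2.26%), 1 for smoked against control WT brain (1.35%) and 5 of 12 between tissues (39.5%). For control Nrf2-/- against control WT brain the count was 1 (0.869%). It was the Asb4 region that chose the members, so the choice fixed this count. With regions joined over 300 bp the member counts by size were 3, 3, 3 and 2 of 33 for smoked WT and recovery 1, 2 and 3 (4.88%, 5.52%, 4.17% and 6.95% of all), 5 in each genotype comparison of F0 sperm (8.28% and 8.29%), and 7 of 40 for smoked against control WT brain (10.1%). Between tissues limma then called 11 of 17 regions (61.1% of all), and 1 of 1 with 6 libraries per group (68.1%). Leaving out each library in turn gave 7 to 7 calls between tissues.

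Chosen after seeing the data, leaving out brain libraries 3 and 6 gave 1 called member region between smoked and control Nrf2-/- brain, the Asb4 region whose values chose those libraries, so that the choice fixed this count and nothing is read from it. Also chosen then, leaving out the 2 called Asb4 cytosines, picked by their difference between the control groups, gave 0 member windows called in F0 sperm. Leaving out each library in turn at the shared promoter in brain, chosen then as well, gave 4.07 to 10.8 points in WT and -14.2 to -9.09 points in Nrf2-/-. The counts without the Asb4 upstream region and window were added then too. The columns carry none of the labels' replicate numbers, so no labelled pairing could be used. The facility numbers run through the groups of a genotype in sets of 5 in WT F0 sperm and 4 in brain. In Nrf2-/- F0 sperm they follow no repeating order, and sets of 5 were imposed there. No label ties a set to a batch. Deviations from group means correlated above 0.1 in 5 of 92 (WT sperm), 0 of 22 (Nrf2-/- sperm), 4 of 16 (WT brain) and 5 of 16 (Nrf2-/- brain) pairs of libraries of 1 set. In WT brain the median r was 0.0367 within sets and -0.0088 between them, with a highest r within a set of 0.476. In Nrf2-/- brain the medians were 0.0795 and -0.0582. The main fits do not use the sets. With the sets as a replicate block, also chosen after seeing the data, limma called 0 of 24 member regions in each of the 5 comparisons of smoke or recovery within a genotype in sperm and 0 of 30 in both in brain, and 0 member windows, as without the block. Of all regions the block called at most 0.0223% in sperm and 0.00124% in brain, and of all windows at most 0.00336% and 0.0316%. At an unadjusted p under 0.05 the block gave 1 of 30 regions in WT and 7 in Nrf2-/- brain (5.6% and 11.7% of all), and 1 and 3 of 9 windows (7.4% and 17% of all). The 30 regions and 9 windows take in the Asb4 upstream region that chose the members and the Asb4 window. Counts without that region and window were not made with the block. No set holds both genotypes, so genotype could not be compared within sets. F1 sperm numbers mostly run in consecutive pairs of a control and a smoked library, and a block by pair was not fitted there. Unknown read depth limits every single-cytosine value.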
